A study of Mus musculus with 8 samples.

Results

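Mature miRNAs were counted in mouse embryonic stem cells that lack Ago2 and carry an AGO1 transgene that had not been switched on, and the counts were set against those of wild type cells. The members are all mature miRNAs of the deposited small RNA table in 4 of its 8 libraries, A and B of the uninduced AGO1 line and A and B of wild type E14. The table lists 1915 mature miRNAs. Of these, 935 had a count in the 4 libraries and 475 passed the filter on low counts and were tested.

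All cells were of the 129/Ola background, from blastocysts, and grew on gelatine in 15% serum with LIF at 100 U/mL. The wild type group is E14, an established mouse embryonic stem cell line. The uninduced group has the Ago2 knockout and an inducible, ectopic AGO1. Its lines were kept in puromycin at 2 µg/mL and received no doxycycline, the agent used at 1 µg/mL for induction. The source label of both uninduced libraries is Ago2KO1-AGO1_A, so both appear to come from 1 line made from knockout line 1. The other libraries are from Ago2 knockout lines 1 and 2 and from the same AGO1 line after induction. Ago2 loss, the transgene, puromycin and the history of 1 selected line move together in the comparison with wild type and cannot be told apart. The counts hold no messenger RNA, so the state of Ago2 and of the transgene, and the promoter that drives it, were not checked here. The labels do not say that libraries A and B were separate cultures, so p-values measure only the spread between these samples, which may be technical.

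As background, a miRNA is made from a hairpin RNA that Drosha and then Dicer cut to a short duplex. One strand of the duplex, from the 5′ (5p) or the 3′ (3p) arm, is kept in an Argonaute protein, and the strand that is mostly lost is called the minor arm. Bases 2 to 8 of the kept strand, the seed, pair with target messenger RNAs, so miRNAs with the same seed form a family. AGO1 and AGO2 are both expressed in embryonic stem cells. AGO2 can also cut RNA, and miR-451a needs that cut to mature. The miR-290-295 cluster is the best known miRNA cluster of mouse embryonic stem cells, and let-7 accumulates as such cells differentiate.

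The mature sequences below, from RefSeq (GRCm38.p6), are shown because members with 1 seed, in capitals, either moved together or moved apart in the uninduced line. Sequences were matched by name for 384 of the 475 tested miRNAs. The pairs of the first 2 seeds fell together.
miR-301a-3p: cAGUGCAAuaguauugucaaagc
miR-130a-3p: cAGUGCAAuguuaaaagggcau
miR-103-3p: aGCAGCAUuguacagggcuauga
miR-107-3p: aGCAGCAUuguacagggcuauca
The next 2 seeds hold members that moved in opposite directions.
miR-363-3p: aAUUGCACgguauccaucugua
miR-92a-3p: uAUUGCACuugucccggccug
miR-92b-3p: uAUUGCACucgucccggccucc
miR-367-3p: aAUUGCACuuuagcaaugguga
miR-181c-5p: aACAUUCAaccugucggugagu
miR-181d-5p: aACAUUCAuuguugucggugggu
miR-181a-5p: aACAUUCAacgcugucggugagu
miR-181b-5p: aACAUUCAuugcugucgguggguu
The let-7 seed fell in every tested member but let-7c-5p.
let-7a-5p: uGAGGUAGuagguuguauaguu
let-7c-5p: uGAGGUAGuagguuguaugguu
let-7e-5p: uGAGGUAGgagguuguauaguu
let-7f-5p: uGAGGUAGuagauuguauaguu
let-7g-5p: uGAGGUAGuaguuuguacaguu
miR-98-5p: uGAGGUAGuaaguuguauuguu

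Wild type libraries held 949620 (A) and 1115712 (B) counts and uninduced libraries 736895 (A) and 292895 (B). The knockout libraries were shallower, at 359099 (line 1) and 163467 (line 2), and the induced libraries held 1326638 and 1117435. Values are CPM, counts per 1000000 of the library total times edgeR's TMM factor, each pair given in the order A, B (or knockout line 1, 2). Where a library had no count, up to 3 counts remain possible, that is 3.56 and 2.70 CPM in wild type A and B and 3.99 and 9.92 CPM in uninduced A and B. Such floors cover counting error only. Within a group, A and B ranked the tested miRNAs alike (Spearman's rho 0.977 in wild type and 0.973 in the uninduced line, over 475 miRNAs of 1 library each). Uninduced and wild type libraries had a rho of 0.756 to 0.785.

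In the uninduced line, 281 of 475 tested miRNAs were called different (59.2% of those tested, edgeR's quasi-likelihood test, adjusted p under 0.05). Of these, 123 were higher (25.9%) and 158 lower (33.3%). The change reached 2-fold in 111 higher and 139 lower calls, 4-fold in 48 and 84, and 8-fold in 22 and 37. In 390 miRNAs (82.1%) the 2 uninduced values did not overlap the 2 wild type values, 179 higher (37.7%) and 211 lower (44.4%). The median log2 fold change of all tested miRNAs was -0.14 and became -0.01 without TMM factors, a shift of the whole scale against which smaller changes should be read. Of the 281 calls, 157 were kept whichever of the 4 libraries was left out. A miRNA near the floor in wild type could pass the filter on low counts through the other groups. In at least 1 wild type library 85 of the 475 were under the filter's level (10 counts at the median depth). Of these 38 were higher and 3 lower, while of the other 390, 85 were higher and 155 lower. Likewise, 379 of the 475 were at that level in both uninduced libraries, and the rest could pass through the other groups. In that rest a fall could be seen more readily than a rise. Calls were made at every level of abundance. Of 79 with a mean over 1000 CPM, 22 were higher and 29 lower, and of 90 under 20 CPM, 16 were higher and 24 lower.

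**Figure D1:**
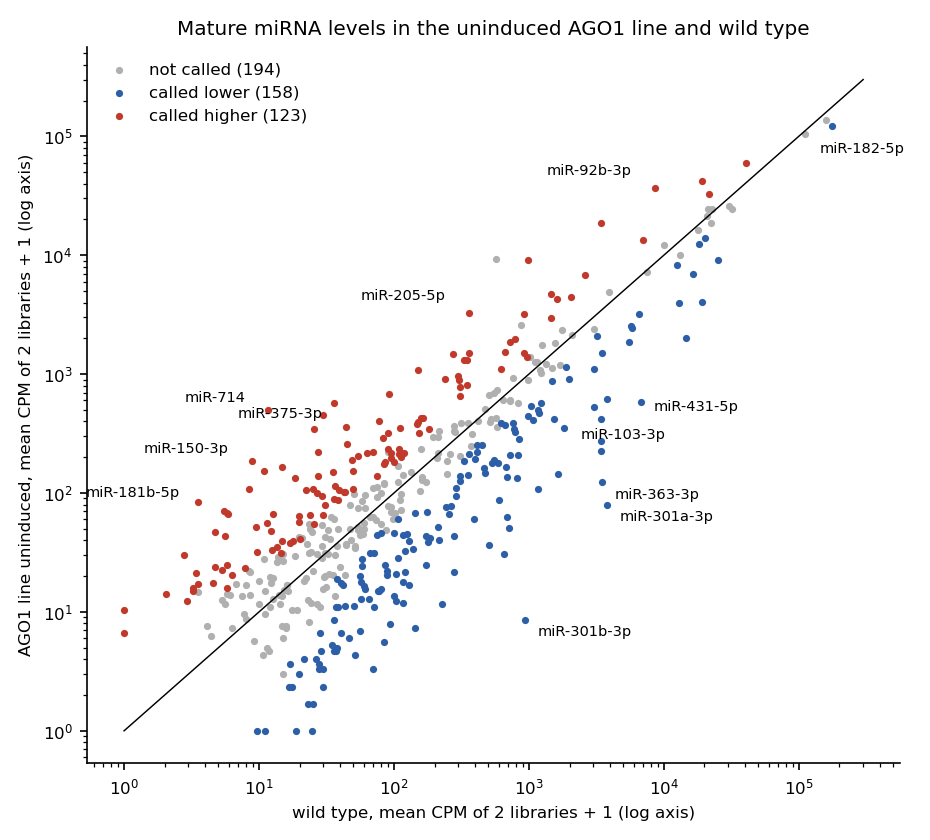
Mean CPM of the 2 uninduced libraries (y) against the 2 wild type libraries (x), both plus 1 on log axes, with 1 point per tested miRNA and the line of equal level. The 158 miRNAs called lower and the 123 called higher lie on either side of the line over the whole range of abundance, and the 194 not called lie along it.

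Among the most abundant miRNAs, the share of the library shifted by less than the largest changes at lower levels. miR-182-5p, which is encoded with miR-183 and miR-96 and is typical of sensory organs, had 181993 and 171871 CPM in wild type and 136181 and 107930.0 CPM in the uninduced libraries (log2 fold change -0.54, SE 0.14, edgeR adjusted p = 0.0097). This call was lost without wild type A (adjusted p = 0.131) and without uninduced B (adjusted p = 0.528). miR-295-3p, of the miR-290-295 cluster, had 176148 and 144507 CPM in wild type and 145089 and 128051 CPM in the uninduced line and did not pass the test (log2 fold change -0.23, SE 0.15, edgeR adjusted p = 0.192). miR-127-3p, of the imprinted Dlk1-Dio3 region, was close in both groups, at 115187 and 107368 CPM in wild type against 93264 and 116441 CPM (log2 fold change -0.09, SE 0.19, edgeR adjusted p = 0.708). The last 2 values changed sign under some scalings or without 1 library.

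2 abundant miRNAs rose by over 1 on the log2 scale. miR-92b-3p had 9503 and 7643 CPM in wild type and 34549 and 38946 CPM in the uninduced libraries (log2 fold change 2.10, SE 0.16, edgeR adjusted p = 4.0e-06), and every uninduced value was above every wild type value. Its hairpin lies at chromosome 3, 89227116 to 89227198 (GRCm38). miR-411-5p, a Dlk1-Dio3 miRNA, had 20042 and 18503 CPM in wild type against 46368 and 37980.4 CPM (log2 fold change 1.13, SE 0.17, edgeR adjusted p = 2.9e-04). miR-22-3p, from an exon of the Mir22hg host gene, rose less, from 40898 and 40919 CPM to 57196 and 61236 CPM (log2 fold change 0.53, SE 0.13, edgeR adjusted p = 0.0051), and lost the call without uninduced A (adjusted p = 0.065). Among those that fell, miR-27b-3p had 28134 and 22434 CPM in wild type and 9921 and 8396 CPM in the uninduced line (log2 fold change -1.46, SE 0.19, edgeR adjusted p = 1.4e-04). miR-293-3p, of the miR-290-295 cluster, fell from 18055 and 14995 CPM to 6884 and 7049.8 CPM (log2 fold change -1.25, SE 0.16, edgeR adjusted p = 1.2e-04). miR-183-5p fell from 12992 and 12748 CPM to 4501 and 3429 CPM (log2 fold change -1.70, SE 0.18, edgeR adjusted p = 4.7e-05).

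Deep falls were measured in the miR-130 and miR-301 family. miR-301a-3p, from an intron of Ska2 on chromosome 11 (87113004 to 87113089), had 3920.3 and 3638 CPM in wild type and 74.5 and 82.7 CPM in the uninduced line (log2 fold change -5.59, SE 0.22, edgeR adjusted p = 6.5e-08). miR-301b-3p had 963 and 898 CPM in wild type and 5.32 and 9.92 CPM in the uninduced line (log2 fold change -7.06, SE 0.34, edgeR adjusted p = 2.1e-07). The uninduced values of miR-301b-3p rest on 4 and 3 counts, at or near the floor of 3 counts, so the size of its fall is uncertain. The knockout lines held 67.4 and 75.5 CPM of miR-301a-3p and 22.5 and 20.1 CPM of miR-301b-3p. miR-130a-3p, which has the seed of miR-301a-3p, fell far less, from 7203 and 5983 CPM to 3160.2 and 3257 CPM (log2 fold change -1.04, SE 0.18, edgeR adjusted p = 8.1e-04). In all, 6 of 8 tested family members were lower and 1 was higher, with a median of -2.0. Over all tested miRNAs 33.3% were lower and the median was -0.14. Only 5 of the 8 were at the filter's level in both uninduced libraries, so the count of falls is partly set by the filter. The 3 tested miRNAs matched to the seed AGUGCAA made up 1.29% and 1.26% of wild type counts and 0.538% and 0.569% of uninduced counts.

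miR-103-3p and miR-107-3p, which are encoded in introns of the pantothenate kinase genes Pank2 and Pank3 (miR-103) and Pank1 (miR-107), fell side by side. miR-103-3p had 3609 and 3288 CPM in wild type and 225 and 222 CPM in the uninduced line (log2 fold change -3.95, SE 0.22, edgeR adjusted p = 5.2e-07). miR-107-3p had 324 and 236 CPM in wild type against 14.6 and 26.5 CPM (log2 fold change -3.87, SE 0.38, edgeR adjusted p = 2.4e-05). Their hairpins lie on 3 chromosomes, with miR-103 at chromosome 2 (131288052 to 131288137) and 11 (35782396 to 35782481) and miR-107 at chromosome 19 (34820687 to 34820773). Reads that match both near-identical sequences may have been split between them. Their shared seed took 0.349% and 0.351% of wild type counts and 0.0244% and 0.0256% of uninduced counts.

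The let-7 family was low in wild type and lower in the uninduced line. Of 11 tested members of 23 listed, 10 fell and 1 rose, with a median of -2.62. These are 90.9% and 9.09%, against 33.3% lower and 25.9% higher over all tested miRNAs. Only 7 of the 11 were at the filter's level in both uninduced libraries, so the count of falls is partly set by the filter. let-7f-5p had 914 and 709 CPM in wild type and 129 and 136 CPM in the uninduced line (log2 fold change -2.62, SE 0.29, edgeR adjusted p = 5.2e-05). let-7g-5p, from an intron of Wdr82, had 306 and 249 CPM in wild type against 35.9 and 49.6 CPM (log2 fold change -2.74, SE 0.33, edgeR adjusted p = 8.5e-05). Both had lost most of their wild type level. The value of let-7a-5p went from 246 and 177 CPM to 47.9 and 52.9 CPM (log2 fold change -2.07, SE 0.31, edgeR adjusted p = 2.9e-04), and that of miR-98-5p from 41.5 and 31.5 CPM to 3.99 and 3.31 CPM (log2 fold change -3.20, SE 0.64, edgeR adjusted p = 0.0017). The uninduced values of miR-98-5p rest on 3 and 1 counts, at or under the floor of 3 counts, so the size of its fall is uncertain. let-7c-5p was the exception, with 93.7 and 106 CPM in wild type and 219.6 and 142 CPM in the uninduced line (log2 fold change 0.87, SE 0.31, edgeR adjusted p = 0.03). Its call was lost without wild type A (adjusted p = 0.0816), without wild type B (0.0838) and without uninduced A (0.446). The knockout lines held 117 and 80.5 CPM of let-7c-5p. The 8 tested miRNAs with the let-7 seed together took 0.177% and 0.159% of wild type counts and 0.0535% and 0.0458% of uninduced counts. These sequences differ by few bases, so the split of reads among them is uncertain.

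The seed AUUGCAC, shared by miR-25, miR-32, miR-92a, miR-92b, miR-363 and miR-367, moved both ways at once. miR-363-3p, the last member of the miR-106a-363 cluster on the X chromosome (hairpin 52741693 to 52741767), had 3939 and 3015 CPM in wild type and 108 and 136 CPM in the uninduced line (log2 fold change -4.85, SE 0.36, edgeR adjusted p = 3.2e-06). miR-32-5p went from 96.1 and 118 CPM to 34.6 and 19.8 CPM (log2 fold change -1.87, SE 0.36, edgeR adjusted p = 0.0014), and its value was -2.51 without uninduced A. Both falls are large beside the SE. Against these falls, miR-92b-3p rose as given above, and miR-367-3p, of the miR-302-367 cluster, had 1.19 and 3.6 CPM in wild type and 24.0 and 16.5 CPM in the uninduced line (log2 fold change 2.99, SE 0.75, edgeR adjusted p = 0.0063). The wild type values of miR-367-3p are at or near the floor of 3 counts, its value was 3.95 without wild type B, and its call was lost without uninduced A (adjusted p = 0.117). miR-92a-3p, at 11014 and 8950.0 CPM in wild type against 11757 and 12608 CPM, did not pass the test (log2 fold change 0.29, SE 0.17, edgeR adjusted p = 0.159), nor did miR-25-3p. The sum of the 6 members was 3.81% and 3.67% of wild type counts and 6.57% and 6.83% of uninduced counts, so the seed as a whole held a larger share.

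The miR-181 seed was split as well. miR-181c-5p had 3099 and 3021 CPM in wild type and 513 and 552 CPM in the uninduced line (log2 fold change -2.52, SE 0.19, edgeR adjusted p = 3.2e-06). miR-181d-5p, at 3122 and 2951 CPM in wild type against 2461 and 2371 CPM, did not pass the test (log2 fold change -0.33, SE 0.16, edgeR adjusted p = 0.104). miR-181b-5p, nearly absent from wild type at 2.37 and 2.7 CPM, reached 87.9 and 79.4 CPM (log2 fold change 4.95, SE 0.71, edgeR adjusted p = 2.3e-04). miR-181a-5p had 7.12 and 20.7 CPM in wild type and 172 and 159 CPM in the uninduced line (log2 fold change 3.51, SE 0.79, edgeR adjusted p = 0.0035). Both rises start from a level near the floor, and the value of miR-181a-5p was 4.49 without wild type B. For miR-181a-5p the knockout lines disagreed, with 192 CPM in line 1 and 10.1 CPM in line 2. The 4 members together held 0.553% and 0.597% of wild type counts and 0.330% and 0.326% of uninduced counts.

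**Figure D2:**
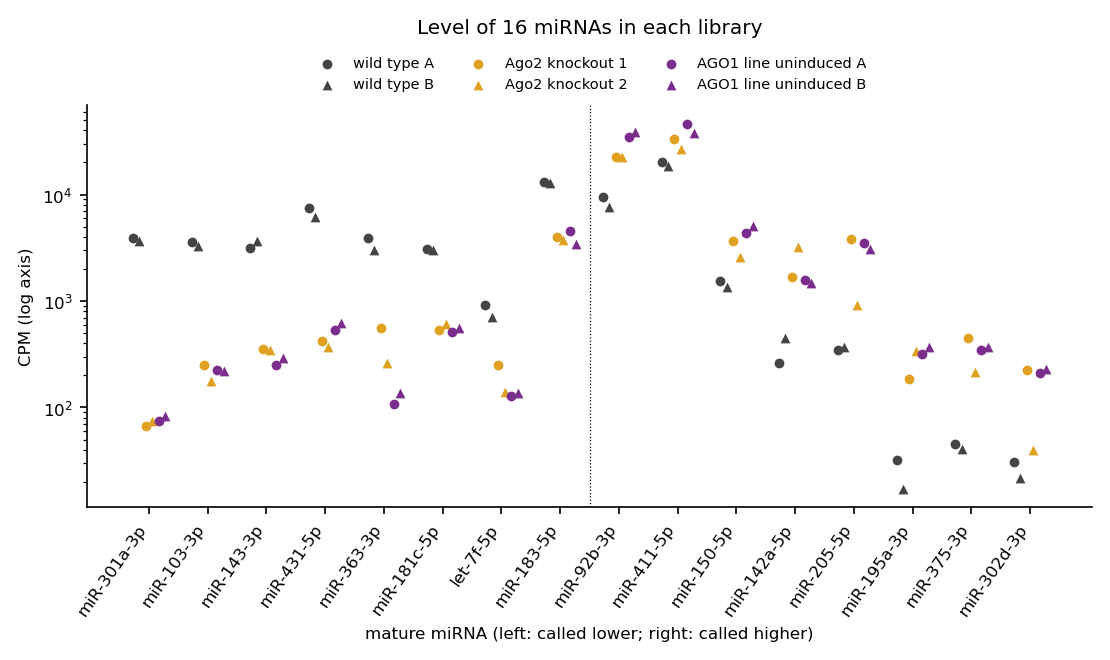
CPM on a log axis of 16 miRNAs in the 2 wild type, 2 Ago2 knockout and 2 uninduced libraries, with 1 point per library. For the 8 miRNAs on the left both uninduced values lie below both wild type values, and for the 8 on the right above them; in miR-205-5p and miR-302d-3p knockout line 2 lies well below knockout line 1 and the uninduced libraries.

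Members of the miR-17-92 cluster and its copies on other chromosomes, regulators of cell cycle and cell death genes, numbered 12 lower, 5 higher and 9 not called of 26 tested, or 46.2% lower and 19.2% higher, against 33.3% and 25.9% over all tested miRNAs. 5 of the 6 tested miRNAs with the seed AAAGUGC fell, and their sum was 1.18% and 1.12% of wild type counts and 0.644% and 0.578% of uninduced counts. miR-93-5p had 6007 and 5348 CPM in wild type and 2677 and 2401 CPM in the uninduced line (log2 fold change -1.16, SE 0.18, edgeR adjusted p = 4.2e-04). miR-106a-5p had 1633 and 1432 CPM in wild type against 459 and 377 CPM (log2 fold change -1.87, SE 0.21, edgeR adjusted p = 6.1e-05), and miR-17-5p 2161 and 1796 CPM in wild type against 969 and 839.9 CPM (log2 fold change -1.13, SE 0.20, edgeR adjusted p = 8.1e-04). In these 3 the uninduced level was well under that of wild type. miR-18b-5p went from 787 and 585 CPM to 57.2 and 66.1 CPM (log2 fold change -3.49, SE 0.36, edgeR adjusted p = 3.1e-05). The X-linked paralog cluster (52741697 to 52742563, 8 tested) had 6 lower and 1 higher, and the miR-17-92 cluster itself on chromosome 14 (115043684 to 115044459, 8 tested) had 2 lower and 2 higher, near the shares over all tested miRNAs. 2 strands that are scarce in wild type rose. miR-19b-1-5p went from 7.12 and 1.8 CPM to 65.2 and 72.7 CPM (log2 fold change 3.98, SE 0.56, edgeR adjusted p = 2.0e-04), and miR-25-5p from 125 and 58.5 CPM to 671 and 698 CPM (log2 fold change 2.91, SE 0.37, edgeR adjusted p = 1.1e-04). Without wild type A these were 5.24 and 3.68, and without wild type B miR-19b-1-5p was 3.21. Wild type counts of miR-19b-1-5p were 6 and 2, near the floor. Of the 26, 4 were under the filter's level in a wild type library and gave 2 of the 5 rises, so the count of rises is partly set by the filter.

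The Dlk1-Dio3 region, an imprinted stretch of chromosome 12 whose miRNAs come from the maternal copy, held 83 of the tested miRNAs (of 119 listed). Of these, 43 were lower and 16 higher, with a median of -1.14, against 33.3% lower and a median of -0.14 over all tested miRNAs. At the filter's level were 62 of the 83 in both uninduced libraries and 73 in both wild type libraries. The count of falls is therefore partly set by the filter. The median is the same with the 4 members that had no count in one of the groups set at their bound. miR-431-5p, which lies in an exon of Rtl1 on the opposite strand (hairpin 109590447 to 109590537), had 7415 and 6204 CPM in wild type and 535 and 622 CPM in the uninduced line (log2 fold change -3.56, SE 0.21, edgeR adjusted p = 5.4e-07). miR-433-3p, also opposite Rtl1, had 1792 and 1506 CPM in wild type against 148 and 139 CPM (log2 fold change -3.52, SE 0.31, edgeR adjusted p = 1.0e-05). Each of these pairs is far apart beside its own spread. miR-666-5p fell from 634 and 680.0 CPM to 33.3 and 26.5 CPM (log2 fold change -4.41, SE 0.25, edgeR adjusted p = 5.2e-07) and miR-487b-3p from 554 and 449 CPM to 34.6 and 36.4 CPM (log2 fold change -3.82, SE 0.30, edgeR adjusted p = 4.7e-06). miR-539-3p, read 45 times in wild type, had 0 counts in the uninduced line, which is at least 8.09-fold lower with 3 counts over the group as the floor. The region's share of all counts was 23.9% and 24.2% in wild type and 23.2% and 24.6% in the uninduced line.

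The early and later hairpins differed in direction in the longest block of this region, miR-379 to miR-3072 (109709065 to 109747949, 50 tested arms with a RefSeq match). The first 3 hairpins, miR-379, miR-411 and miR-299a, lie within 1.61 kb, and all 6 of their arms were called higher, with a median of 1.03. Of the 44 arms that follow, 24 were lower and 3 higher, with a median of -1.36. Over all tested miRNAs 33.3% were lower and 25.9% higher, with a median of -0.14. In the whole region 62 of 83 were at the filter's level in both uninduced libraries. Some later arms, such as miR-380-5p with 0 uninduced counts, were under it, so the count of falls is partly set by the filter. miR-299a-3p had 271 and 279.7 CPM in wild type and 1352 and 1600.4 CPM in the uninduced line (log2 fold change 2.42, SE 0.19, edgeR adjusted p = 4.9e-06). miR-379-5p rose from 331 and 283 CPM to 684 and 625 CPM (log2 fold change 1.09, SE 0.23, edgeR adjusted p = 0.0025). The next hairpins fell: miR-1197-3p, 3.33 kb from the first arm, had 271 and 184 CPM in wild type and 7.99 and 13.2 CPM in the uninduced line (log2 fold change -4.52, SE 0.61, edgeR adjusted p = 1.7e-04). 3 of the 6 early rises were lost on leaving out 1 library: miR-411-3p without wild type A (adjusted p = 0.0556), without B of that group (0.132) and without uninduced A (0.334), miR-299a-5p without the same 3 libraries (0.075, 0.0575 and 0.137), and miR-379-3p without wild type B (0.052) or uninduced A (0.134). This split by position was chosen after the values were seen and has no test.

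**Figure D3:**
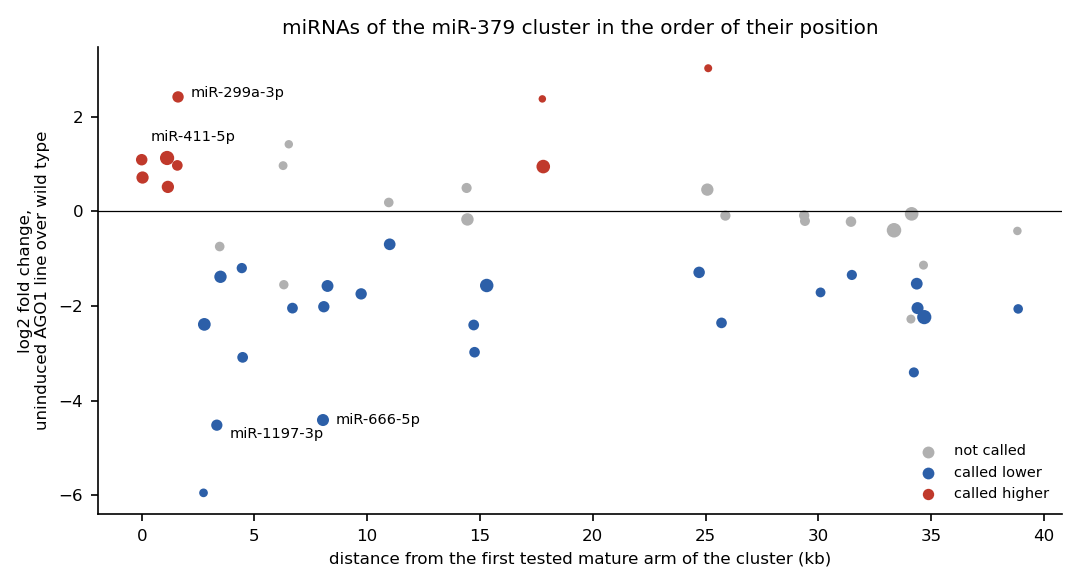
Log2 fold change of the uninduced line over wild type for the 50 tested arms of the miR-379 cluster against their distance from its first arm in kb; larger points had a higher wild type mean. The 6 arms of the first 3 hairpins lie above 0, while 24 of the 44 arms that follow are called lower; miR-380-5p, the lowest point, had no count in the uninduced libraries, so its fitted value depends on the prior count.

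A shorter cluster held both directions as well. On chromosome 17, miR-99b, let-7e and miR-125a lie within 0.683 kb (17830194 to 17830876) in Spaca6. miR-99b-5p fell from 3005 and 3029 CPM to 1162 and 1061 CPM (log2 fold change -1.44, SE 0.18, edgeR adjusted p = 1.1e-04) and let-7e-5p from 113 and 119 CPM to 17.3 and 16.5 CPM (log2 fold change -2.75, SE 0.36, edgeR adjusted p = 1.2e-04). Both arms of miR-125a, the mammalian relative of lin-4, rose: miR-125a-5p had 2673 and 2525 CPM in wild type and 7710.2 and 5995 CPM in the uninduced line (log2 fold change 1.40, SE 0.20, edgeR adjusted p = 2.1e-04), and miR-125a-3p 51.0 and 55.8 CPM in wild type against 199.7 and 205 CPM (log2 fold change 1.92, SE 0.28, edgeR adjusted p = 2.9e-04). In the clusters of miR-23, miR-27 and miR-24, 2 of 8 tested arms were higher and 5 lower (25% and 62.5%, against 25.9% and 33.3% over all tested miRNAs). Of those that fell, miR-23b-3p had 112 and 72.9 CPM in wild type against 3.99 and 9.92 CPM (log2 fold change -3.93, SE 0.52, edgeR adjusted p = 1.4e-04), and miR-24-3p, which also comes from another locus, 224 and 206 CPM in wild type against 38.6 and 39.7 CPM (log2 fold change -2.46, SE 0.35, edgeR adjusted p = 2.4e-04). The value of miR-23b-3p was -3.25 without uninduced A. Its uninduced values rest on 3 and 3 counts, at the floor, so the size of its fall is uncertain. Of the 8 arms, 7 were at the filter's level in both uninduced libraries. The 2 that rose are the 5p arms of miR-27. miR-27b-5p had 237 and 127 CPM in wild type and 366 and 317 CPM in the uninduced line (log2 fold change 0.92, SE 0.35, edgeR adjusted p = 0.042), and miR-27a-5p 127 and 87.3 CPM in wild type against 236 and 235 CPM (log2 fold change 1.14, SE 0.29, edgeR adjusted p = 0.007). The groups did not overlap, but without wild type B and without uninduced A neither was called (adjusted p of 0.27 and 0.185 for miR-27b-5p, 0.0651 and 0.0505 for miR-27a-5p), and without wild type A the value of miR-27b-5p was 1.57. On the list of fibroblast markers 2 of 7 tested (of 13 listed) were higher and 1 lower, with a median of 0.44. These are 28.6% and 14.3%, against 25.9% and 33.3% over all tested miRNAs, so the share of rises was near that of all. The 1 that fell, miR-143-3p, a miRNA of smooth muscle cells and fibroblasts, had 3142 and 3689 CPM in wild type and 252 and 291 CPM in the uninduced line (log2 fold change -3.66, SE 0.20, edgeR adjusted p = 5.2e-07).

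The pluripotency clusters did not move as one. The miR-290-295 cluster took 28.1% and 25.8% of wild type counts and 26.1% and 25.4% of uninduced counts, and of its 18 tested members 4 were higher and 8 lower (22.2% and 44.4%, against 25.9% and 33.3% over all tested miRNAs). miR-290a-5p fell from 879 and 795 CPM to 278 and 288 CPM (log2 fold change -1.57, SE 0.20, edgeR adjusted p = 1.0e-04) and miR-291a-3p from 3824 and 3107 CPM to 1766 and 1266 CPM (log2 fold change -1.19, SE 0.24, edgeR adjusted p = 0.0017), the latter not called without uninduced B (adjusted p = 0.0751). miR-295-5p, the scarcer strand of its hairpin, rose from 339 and 351 CPM to 671 and 952 CPM (log2 fold change 1.23, SE 0.24, edgeR adjusted p = 0.0017). The miR-302-367 cluster, more typical of later, primed pluripotent cells, was scarce, at 0.007% and 0.009% of wild type counts and 0.046% and 0.055% of uninduced counts. The 5 tested members (of 10 listed) were called higher, but 2 of them, miR-302d-5p (3 and 0 counts in wild type, 26 and 7 in the uninduced line) and miR-367-3p, were under the filter's level in wild type and were tested only because other groups held more, so this count is partly set by the filter. miR-302d-3p had 30.8 and 21.6 CPM in wild type and 212 and 231 CPM in the uninduced line (log2 fold change 3.08, SE 0.57, edgeR adjusted p = 0.0012), beside 227 CPM in knockout line 1 and 40.2 CPM in line 2.

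In the miR-34 and miR-449 family, known as p53 targets and from ciliated cells, the 6 tested members (of 11 listed) were called higher, against 25.9% of all tested miRNAs. As 4 of the 6 were under the filter's level in a wild type library, this count too is partly set by the filter. miR-34c-5p had 313 and 376 CPM in wild type and 1435 and 1167 CPM in the uninduced line (log2 fold change 1.92, SE 0.25, edgeR adjusted p = 1.4e-04), and miR-34a-5p had 157 and 139 CPM in wild type against 335 and 429.9 CPM (log2 fold change 1.36, SE 0.24, edgeR adjusted p = 8.1e-04). In the miR-15 and miR-16 family 6 of 12 were higher and 1 lower (50% and 8.33%, against 25.9% and 33.3% over all), with 2 of the 6 rises from under the filter's level in wild type. miR-195a-5p of this family had 86.6 and 78.3 CPM in wild type against 286 and 298 CPM (log2 fold change 1.82, SE 0.29, edgeR adjusted p = 4.6e-04), and its other arm, miR-195a-3p, 32.0 and 17.1 CPM in wild type against 315 and 374 CPM (log2 fold change 3.82, SE 0.40, edgeR adjusted p = 3.5e-05). Without wild type A miR-195a-3p was 4.45. The miR-30 family, with both directions among its members, had 5 higher and 2 lower of 11 (45.5% and 18.2%, against the same 25.9% and 33.3%): miR-30b-5p rose from 708 and 747 CPM to 2033 and 1713 CPM (log2 fold change 1.36, SE 0.19, edgeR adjusted p = 2.1e-04), while miR-30a-5p fell from 812 and 836 CPM to 232 and 182 CPM (log2 fold change -1.98, SE 0.23, edgeR adjusted p = 6.1e-05). In the Sfmbt2 repeat cluster, a rodent block of near-identical miRNAs, 10 of 41 tested (of 80 listed) were higher and 1 lower. The share of rises, 24.4%, was close to the 25.9% over all tested miRNAs, and the share of falls, 2.44%, was under 33.3%. In a wild type library 13 of the 41 were under the filter's level, where a fall could hardly be called (3 higher, 0 lower). Of the other 28, 7 were higher and 1 lower. miR-467c-5p of this block had 273 and 347 CPM in wild type against 666 and 883 CPM (log2 fold change 1.31, SE 0.26, edgeR adjusted p = 0.0016), and the split of reads among its copies is uncertain. In the X-linked germline cluster 6 of 10 tested members (of 40 listed) were under the filter's level in a wild type library, so rises could be seen there more readily than falls; 5 of the 10 were higher and 0 lower, 2 and 0 among the other 4. miR-871-5p, one of those under that level, had 5.93 and 8.99 CPM in wild type and 105 and 109 CPM in the uninduced line (log2 fold change 3.78, SE 0.70, edgeR adjusted p = 0.0011).

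Over all tested miRNAs 33.3% were lower and 25.9% higher. Against this, the miR-200 family had 0 higher and 4 lower of 8 (50% lower), the miR-148 and miR-152 family 0 and 4 of 6 (66.7%), and the miR-26 and miR-101 families 1 and 3 of 7 (42.9%), the last near the share over all. In that order, both uninduced libraries reached the filter's level for 7 of 8, 4 of 6 and 7 of 7 members. The 66.7% is therefore partly set by the filter. miR-429-3p, of the miR-200 family that keeps epithelial cells epithelial, had 781 and 664 CPM in wild type and 179.7 and 238 CPM in the uninduced line (log2 fold change -1.80, SE 0.25, edgeR adjusted p = 1.7e-04). miR-148b-3p, from an intron of Copz1, fell from 571 and 607 CPM to 168 and 185 CPM (log2 fold change -1.74, SE 0.25, edgeR adjusted p = 2.5e-04). Neither overlapped between the groups. miR-101b-3p, from an intron of Rcl1, fell from 139 and 119 CPM to 12 and 19.8 CPM (log2 fold change -3.12, SE 0.38, edgeR adjusted p = 1.0e-04). miR-1981-5p, on the list of miRNAs made without the usual Drosha step, went from 85.4 and 81.0 CPM to 2.66 and 6.61 CPM (log2 fold change -4.37, SE 0.54, edgeR adjusted p = 1.0e-04). Without uninduced A its value was -3.69. Its uninduced values rest on 2 and 2 counts, under the floor of 3 counts, so the size of its fall is uncertain. On that list 2 of 5 tested were lower (40%), near the share over all. Only 2 of the 5 were at the filter's level in both uninduced libraries.

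**Figure D4:**
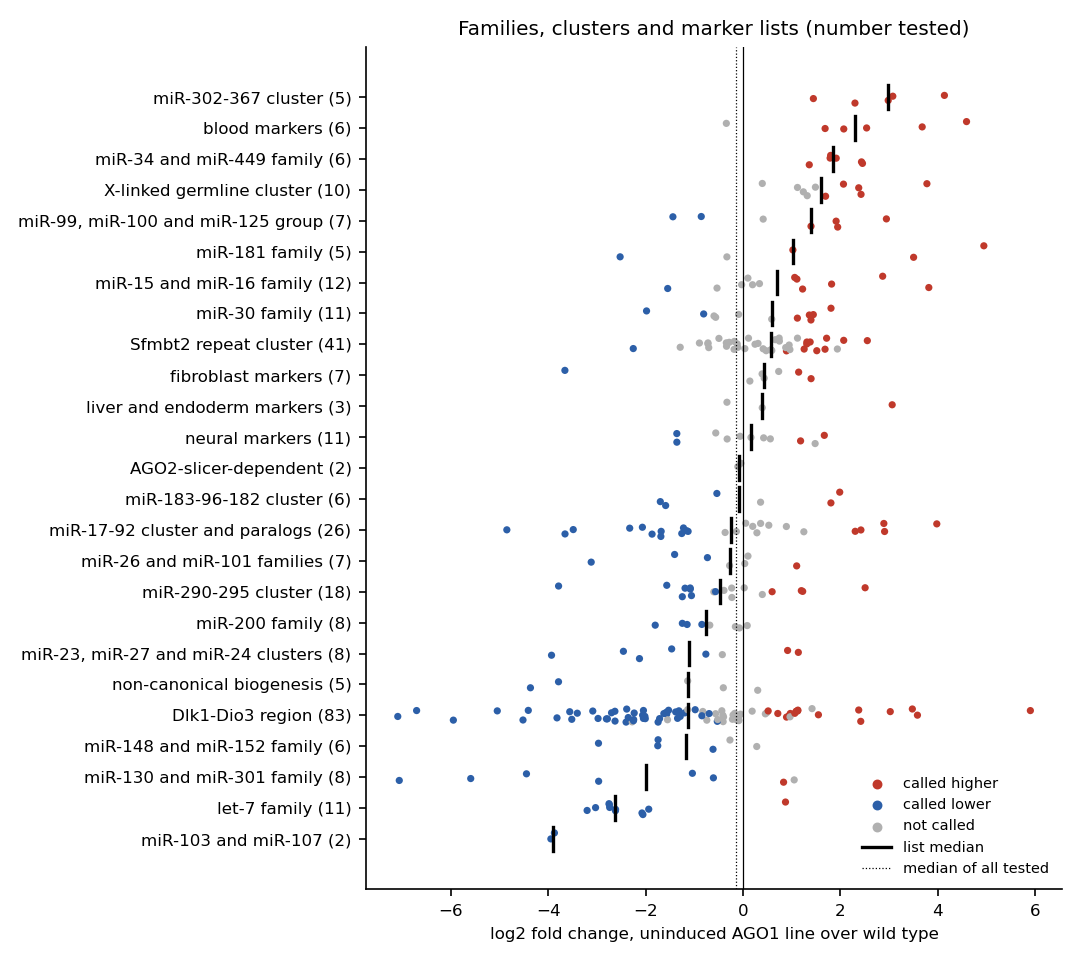
Log2 fold change of the uninduced line over wild type for tested miRNAs in each list, coloured by call, with the list median as a bar and the median of all tested miRNAs (-0.14) as a dotted line. Medians run from -3.91 for miR-103 and miR-107 to 2.99 for the miR-302-367 cluster; a fitted value of a miRNA with no count in one of the groups depends on the prior count.

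Among markers of other cell types, miRNAs of blood cells rose: 5 of 6 tested (of 13 listed) were higher and 0 lower, against 25.9% and 33.3% over all tested miRNAs, and their summed share was 0.169% and 0.192% of wild type counts and 0.659% and 0.728% of uninduced counts. Of the 5 that rose, 2 were under the filter's level in a wild type library. The remaining tested marker, miR-155-5p, leaned downward without being called (log2 fold change -0.34). miR-150-5p, of lymphocytes, had 1541 and 1367 CPM in wild type and 4366 and 5013 CPM in the uninduced line (log2 fold change 1.69, SE 0.21, edgeR adjusted p = 1.0e-04). miR-142a-5p, found across blood cells, had 265 and 454 CPM in wild type against 1567 and 1462 CPM (log2 fold change 2.07, SE 0.33, edgeR adjusted p = 4.6e-04), and miR-146a-5p 2.37 and 7.2 CPM in wild type against 65.2 and 69.4 CPM (log2 fold change 3.68, SE 0.48, edgeR adjusted p = 1.3e-04). Without wild type B the value of miR-146a-5p was 4.70. miR-223-3p and miR-223-5p, of myeloid cells, and miR-144-3p, of red cells, had 0 counts in all 4 libraries. In bulk libraries, a few cells with much of a miRNA and more of it in every cell cannot be told apart. Muscle markers gave 0 tested miRNAs, and 10 of 15 had 0 counts in all 4 libraries. Of the fibroblast markers, given above with miR-143-3p, those that rose were miR-21a-3p and miR-145a-3p. miR-21a-3p had 168 and 157 CPM in wild type against 441 and 417 CPM (log2 fold change 1.40, SE 0.47, edgeR adjusted p = 0.0251), and miR-145a-3p 15.4 and 11.7 CPM in wild type against 28.0 and 33.1 CPM (log2 fold change 1.15, SE 0.44, edgeR adjusted p = 0.043). Both lost the call without wild type A, without wild type B and without uninduced A (adjusted p from 0.0545 to 0.189), and miR-145a-3p also without uninduced B (0.077), without induced A (0.0615), with thinned counts (0.0735), without the filter on low counts (0.108) and with DESeq2 (0.156). Of 11 tested neural markers 2 were higher and 2 lower (18.2% each, against 25.9% and 33.3% over all). Of 3 tested liver and endoderm markers, 0 were lower and 1 was higher (33.3%). miR-375-3p, of endocrine pancreas and endoderm, was the latter, at 45.1 and 40.5 CPM in wild type and 349 and 370.3 CPM in the uninduced line (log2 fold change 3.07, SE 0.35, edgeR adjusted p = 6.1e-05), while miR-122-5p of liver had 0 counts in all 4 libraries. miR-205-5p, an epithelial miRNA, had 344 and 369 CPM in wild type against 3525 and 3062 CPM (log2 fold change 3.21, SE 0.51, edgeR adjusted p = 4.6e-04). The part of these markers in the other results was not tested.

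For miRNAs that need AGO2's own cut, the table gave little. miR-451a and miR-451b had 0 counts in all 4 libraries, so at most 3 counts per library are allowed and no fold can be given. miR-486a-5p, an erythroid miRNA whose maturation also uses that cut, was read 35 and 72 times in the wild type libraries against 42 and 14 times in the uninduced ones, or 41.5 and 64.8 CPM in wild type against 55.9 and 46.3 CPM (log2 fold change -0.04, SE 0.44, edgeR adjusted p = 0.94). The sign of this difference changed with the scaling. miR-486b lies opposite miR-486a with a like sequence, so reads of both may be mixed.

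The balance of both arms of a hairpin was tested separately, since the ratio within a library does not depend on scaling between libraries. Of 135 hairpins with both arms tested, 66 changed their ratio of 3p over 5p counts (48.9%, edgeR adjusted p under 0.05), 35 toward 3p (25.9%) and 31 toward 5p (23%). Among the called hairpins, miR-181c showed the largest shift toward 3p: the 3p arm made up 33.4% and 31.2% of the hairpin in wild type libraries and 86.4% and 82.9% in uninduced ones (log2 change of the ratio 3.56, SE 0.23, edgeR adjusted p = 8.9e-08), so the arm with more counts was a different one. Its 5p arm fell as given above, while its 3p arm rose from 1551 and 1373 CPM to 3267 and 2685 CPM (log2 fold change 1.03, SE 0.18, edgeR adjusted p = 9.8e-04). The arms of this hairpin are shown with their seeds.
miR-181c-5p: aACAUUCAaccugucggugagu
miR-181c-3p: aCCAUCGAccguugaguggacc
miR-290a went the same way, from 51.2% and 34.3% to 84.0% and 84.8% 3p (log2 change of the ratio 2.86, SE 0.31, edgeR adjusted p = 9.6e-06), and miR-18a from 10.4% and 8.76% to 42.6% and 37.7% (log2 change of the ratio 2.71, SE 0.29, edgeR adjusted p = 9.6e-06). In miR-290a the 3p arm went from 921 and 415 CPM to 1466 and 1600.4 CPM, a rise that edgeR no longer called once wild type B was left out (adjusted p = 0.0593), while its log2 fold change was 2.03 without wild type A. In miR-150 the 3p arm was rare in wild type (11 and 3 counts) and less so in the uninduced line (118 and 64 counts) (log2 change of the ratio 2.93, SE 0.41, edgeR adjusted p = 6.8e-05). miR-30e-3p rose from 980.1 and 863 CPM to 3401 and 3059 CPM (log2 fold change 1.81, SE 0.19, edgeR adjusted p = 3.1e-05), and the share of this arm in miR-30e from 85.3% and 85.7% to 97.0% and 96.9%.

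Toward 5p, miR-290b changed most among the called hairpins, with 88.7% and 90.4% 3p in wild type and 41.8% and 40% in the uninduced line (log2 change of the ratio -3.58, SE 0.48, edgeR adjusted p = 5.3e-05). It rests on few counts, 53 and 18 of the 5p arm and 38 and 12 of the 3p arm in the uninduced libraries, and its hairpin lies opposite that of miR-290a. In miR-363 the 3p share was 93.2% and 93.8% in wild type and 59.1% and 64.1% in the uninduced line (log2 change of the ratio -3.20, SE 0.26, edgeR adjusted p = 1.0e-06). In miR-25 it was 99.3% and 99.7% against 96.4% and 95.4% (log2 change of the ratio -3.11, SE 0.39, edgeR adjusted p = 3.9e-05), and in miR-19a 95.9% and 96.2% against 82.4% and 74.4% (log2 change of the ratio -2.64, SE 0.42, edgeR adjusted p = 2.0e-04). The minor arm was defined as the arm with fewer counts in the induced libraries, which the contrast does not use. By this rule 40 of the 66 changed hairpins gained share in the minor arm and 26 lost it. Over all 135 hairpins, called or not, the minor arm's ratio was higher in 78, so the called split was near that of all. The split also depends on the definition: it was 49 and 17 by the wild type libraries and 38 and 28 by the knockout lines. As levels, 38 of the 135 minor arms were higher and 37 lower, and 35 of the 135 major arms were higher and 52 lower. Over all 475 tested miRNAs 25.9% were higher and 33.3% lower, so these counts are not far from those of all miRNAs. Without uninduced A, 38 hairpins in place of 66 were called. None of miR-181c, miR-290a, miR-18a, miR-150, miR-30e, miR-290b, miR-363, miR-25 and miR-19a lost its call when any 1 of the 8 libraries was left out.

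**Figure D5:**
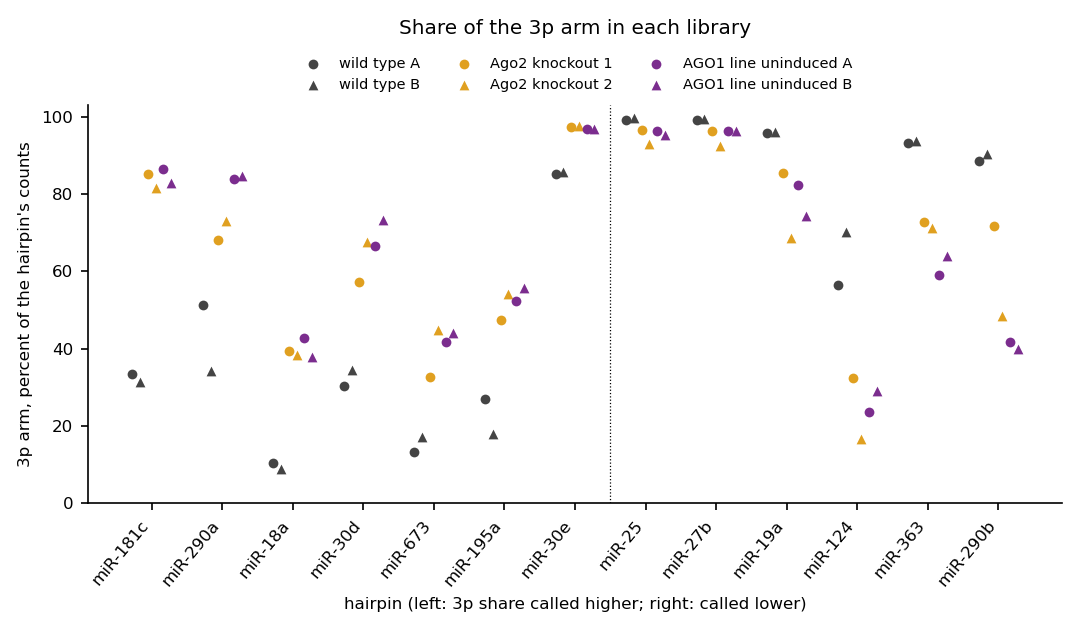
Share of the 3p arm in the counts of 13 hairpins, in percent, for the 2 wild type, 2 Ago2 knockout and 2 uninduced libraries, with 1 point per library. In the 7 hairpins on the left both uninduced shares lie above both wild type shares and in the 6 on the right below them; for miR-181c the share is 33.4% and 31.2% in wild type and 86.4% and 82.9% in the uninduced line.

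The uninduced line was next set directly against the 2 Ago2 knockout lines, which lack the transgene and had no puromycin. Transgene and puromycin move together in this comparison too and cannot be told apart. None of the 475 tested miRNAs was called (0%), with a smallest adjusted p of 0.134 by edgeR. At an unadjusted p under 0.05 there were 72, and DESeq2's Wald test called 8. The knockout lines differed from each other: without line 1, 61 miRNAs were called, and without line 2, 33, with the lone library assumed to vary like the other groups. Of 135 hairpins, 1 differed in arm ratio (0.741%), miR-433, which rests on 1 count of the 5p arm in each uninduced library. A p that misses the threshold does not show that these lines act alike. Library by library, Spearman's rho with the uninduced libraries was 0.947 and 0.931 for knockout line 1 and 0.921 and 0.924 for line 2, over the same 475 miRNAs.

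Against wild type, 274 miRNAs were called in the knockout lines (57.7%), 121 higher (25.5%) and 153 lower (32.2%). That comparison and the one of the uninduced line use the same wild type libraries, so values are given side by side without a test of overlap. For miR-103-3p the log2 fold change was -3.99 in the knockout lines and -3.95 in the uninduced line, for miR-301a-3p -5.74 and -5.59, for miR-431-5p -4.10 and -3.56, and for miR-143-3p -3.29 and -3.66. For miR-92b-3p it was 1.39 and 2.10, and for miR-375-3p 2.98 and 3.07. Larger gaps were seen for miR-363-3p, at -3.07 and -4.85, and for miR-429-3p, at -0.74 and -1.80, though neither was called in the direct test. For miR-22-3p the values were -0.01 and 0.53.

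Among tested miRNAs with a mean of at least 20 CPM over the 8 libraries, 23 had the 2 knockout lines at least 4-fold apart. Values under the floor of 3 counts were set at the floor. In 11 of them line 1 was higher, and in all 11 the uninduced libraries were nearer to line 1 on the log2 scale. In the other 12 line 2 was higher, and in 11 of these the uninduced libraries were nearer to line 2. The mean includes the uninduced libraries, so a miRNA low in 1 knockout line passes more easily where they are high. Nearness to the higher line is therefore partly set by the selection. miR-205-5p had 3807 CPM in line 1, 916 in line 2 and 3525 and 3062 in the uninduced line. miR-871-5p had 62.4 CPM in line 1, 0 counts in line 2 and 105 and 109 CPM in the uninduced line. In both, the uninduced libraries were close to line 1. In the reverse direction, miR-2137 had 32.4 CPM in line 1 and 20821 in line 2, but also 85.4 and 1052 in wild type and 2978 and 15726 in the uninduced line, so it differed widely within every one of these groups and was not called (log2 fold change 4.03, SE 1.84, edgeR adjusted p = 0.082).

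miR-2137 was not alone in varying within groups. miR-690 had 19.0 and 38.7 CPM in wild type and 192 and 708 CPM in the uninduced line (log2 fold change 3.9, SE 1.30, edgeR adjusted p = 0.024), and lost its call without either wild type library (adjusted p = 0.141 without A and 0.0832 without B) and without uninduced B (0.0812, log2 fold change 2.89). miR-714 had 5.93 and 15.3 CPM in wild type against 162 and 827 CPM (log2 fold change 5.44, SE 0.93, edgeR adjusted p = 7.8e-04), and miR-712-5p 15.4 and 4.5 CPM in wild type against 71.9 and 235 CPM (log2 fold change 3.92, SE 0.92, edgeR adjusted p = 0.0045). On leaving out 1 library miR-714 ranged from 4.05 without uninduced B to 6.29 without wild type B, and miR-712-5p from 3.12 without uninduced B to 5.10 without wild type A. In all 4 miRNAs the shallower uninduced library, B, held the higher value, and the shallowest library of the series, knockout line 2, held more than knockout line 1. The part of depth or of RNA quality in these values was not tested.

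Sequence features were compared last. Among tested miRNAs with a matched sequence, the first base was U in 38.5% of 96 higher, 40.8% of 142 lower and 36.3% of 146 not called. The median GC content was 47.7% in higher, 47.7% in lower and 47.6% in those not called, and the median length was 22 bases in each. The last base was U in 37.5% of higher, 45.1% of lower and 32.9% of not called miRNAs. These are counts without a test. The median wild type level was 45.8 CPM for higher, 175.6 CPM for lower and 70.7 CPM for not called miRNAs.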

How the data were processed

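The authors counted small RNA reads per mature miRNA, and the deposited table holds raw, whole-number counts. The submitters' processing notes name Bowtie and the genome build mm10. How adapters were removed, how reads matching several places were handled and which miRNA release was used is not given in the sources used here. Libraries were made with an Illumina TruSeq small RNA kit, per the labels' protocols. The table has 2 header lines, which differ in 1 wild type name, and the first was used. Depth was 163467 to 1326638 counts per library, and 901 of 1915 miRNAs had no count.

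All 8 libraries (4 groups of 2) entered 1 fit with R 4.3.3 and edgeR 4.0.16 (quasi-likelihood F test, 2-sided, filterByExpr, TMM factors 0.881 to 1.22, 4 residual degrees of freedom, common biological coefficient of variation 0.244), with Benjamini-Hochberg adjustment over 475 miRNAs, which held 99.9% of counts. The SE of a log2 fold change is its size over the square root of F. Arm ratios were fitted the same way with each library as a term. DESeq2 1.42.0 and other scalings, filters, depths and left-out libraries were alternatives. The fits were tested on simulated data. Positions and host genes are from RefSeq and GENCODE vM21 (GRCm38, the build mm10). Clusters join miRNAs within 10000 bases.

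The members, lists and rules were chosen with earlier results of these data known. Named miRNAs were the 12 largest rises and the 12 largest falls (mean of at least 20 CPM, groups not overlapping), the 8 most abundant, 4 of smallest adjusted p and the most abundant of each list, the slicer list, the 6 hairpins of largest arm change each way, and other arms of these. let-7c-5p, miR-17-5p, miR-32-5p, miR-92a-3p, miR-93-5p, miR-98-5p, miR-155-5p, miR-291a-3p, miR-379-5p, miR-379-3p, miR-27a-5p and miR-2137 were chosen after their values were seen. So were the minor arm by the induced libraries, the split of the miR-379 cluster and the 4-fold gap between knockout lines.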

Additional observations from a re-analysis of the deposited data

How the results depend on the processing

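The total of 281 calls (123 higher, 158 lower) stayed within 1.5 times under other scalings, DESeq2 (241), other filters, thinned counts (218) and without each of the 8 libraries. The count of higher calls alone moved by more than 1.5 times without uninduced A. Testing for a change above 2-fold gave 159 (59 higher, 100 lower). Leaving out 1 library gave 74 to 151 higher and 111 to 182 lower calls, the fewest higher without uninduced A. The split of calls was 43.8% higher in all.

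Against the knockout lines there were 0 calls in the main setting, 2 without TMM factors, 8 with DESeq2, 14 without an abundance filter, and 0 to 61 on leaving out 1 library. Arm ratio calls ranged from 38 to 69 on leaving out 1 library. Whether the letters A and B pair the samples is not settled by these data. The correlation over miRNAs of the A to B difference was 0.081 for wild type with uninduced and -0.01 for wild type with induced libraries. For uninduced with induced libraries it was 0.235. With the letters as a replicate block in 6 libraries 321 miRNAs were called, and 321 in the same libraries without it, and 69 hairpins were called with the block.

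3 uncalled values changed sign. miR-486a-5p was 0.0118 with DESeq2 size factors, 0.0043 with DESeq2, 0.0636 without TMM factors, 0.2429 with thinned counts and -0.30 to 0.3063 on leaving out 1 library. miR-127-3p was 0.0414 without TMM factors, 0.0852 thinned and -0.15 to 0.1064 on leaving out 1 library. miR-295-3p was -0.40 to 0.0672 on leaving out 1 library. The cause was not tested. Uninduced B, at 292895 counts, limits what can be said of miRNAs near its floor of 9.92 CPM.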
